A study of Mus musculus with 6 samples.

Results

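Matrix metalloproteinases (MMPs), ADAMTS enzymes and tissue inhibitors of metalloproteinases (TIMPs) are encoded by 46 of the 22173 genes listed for this mouse retina series. They are 23 Mmp genes, 19 Adamts genes and 4 Timp genes, taken by symbol (Mmp, Adamts or Timp followed directly by a digit, so that Adamtsl genes are left out). RNA was measured by sequencing in whole wild-type C57BL/6J retina at postnatal day 17, in 3 Control libraries from pups kept in room air and 3 libraries of oxygen-induced retinopathy (OIR), whose pups breathed 75% oxygen between days 7 and 12 and room air after that. In this model the oxygen phase stops vessel growth, and the retina later becomes hypoxic and grows abnormal vessels. The libraries held between 35615501 and 38025623 reads, as worked out from the deposited values. These numbers are not in the labels, and their last digits are not exact. Whether they are reads or fragments is not stated. No label says that the libraries within a group are from different animals, and the p-values reflect only how far these libraries spread, which may be technical.

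MMPs and ADAMTS enzymes are zinc-dependent proteases that cut matrix proteins, growth factor stores and cell surface proteins. TIMPs bind their active sites and block them, and TIMP3, which stays bound to the matrix, also blocks several ADAMTS enzymes. Endothelial cells need such proteases to leave the basement membrane when a vessel sprouts. In the eye, TIMP3 is a component of Bruch's membrane under the pigment epithelium.

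Levels are given as RPKM, reads scaled by gene length and by the depth of the library, so levels of different genes can be compared. Genes with at least 1 RPKM in at least 3 libraries were tested with limma on log2(RPKM + 1), which understates the change of low genes, and a gene was called at a Benjamini-Hochberg adjusted p below 0.05 over all 12112 tested genes. Of the 46 members, 16 were tested, 30 were too low, and 4 of these (Mmp1a, Mmp1b, Mmp7 and Mmp27) were listed at 0 in all libraries. Among the 16, 14 reached 1 RPKM in all 6 libraries. The other 2, Mmp11 and Adamts4, reached it in 4 libraries, the 3 OIR libraries and 1 Control library each. They therefore passed the filter only through OIR, the group in which they were higher. Lens genes made up 6.90% of all reads of Control 3 and 0.594% of those of OIR 2, against 0.0220% to 0.0681% in the other libraries. RPKM is scaled by all reads, so a larger lens share lowers the RPKM of the other genes of that library. OIR 2 had the lowest OIR value of several members and of Gfap, the filament gene of reactive glia, at 28.0 RPKM against 61.3 in OIR 1 and 74.1 in OIR 3. Strand was not stated, so reads of a gene and of an overlapping gene on the other strand cannot be told apart.

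In OIR the genes of 2 proteases, Mmp14 and Mmp11, and of 1 inhibitor, Timp3, were higher, and no member was lower. That is 3 of 16 tested members, or 18.8%, and of all tested genes 18.8% were called in either direction, 11.6% higher and 7.22% lower. Mmp11 counts among the 3 although it passed the filter only through OIR. The median log2 fold change was 0.19 over the tested members and 0.03 over all tested genes. At an unadjusted p below 0.05 there were 13 members (81.2%), 9 higher and 4 lower, against 34.0% of all tested genes. All OIR libraries lay above all Control libraries in 7 tested members (43.8%) and below them in 3 (18.8%), against 23.6% and 15.0% of all tested genes. The number of called members moved to 7 higher and 3 lower when both lens-rich libraries, Control 3 and OIR 2, were left out. Of all 12112 tested genes 2094 were then called higher (17.3%) and 1943 lower. With lens reads left out of the total, 4 members were called higher and 1 lower. The shares of all tested genes were then 10.8% higher and 10.6% lower.

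**Figure D1:**
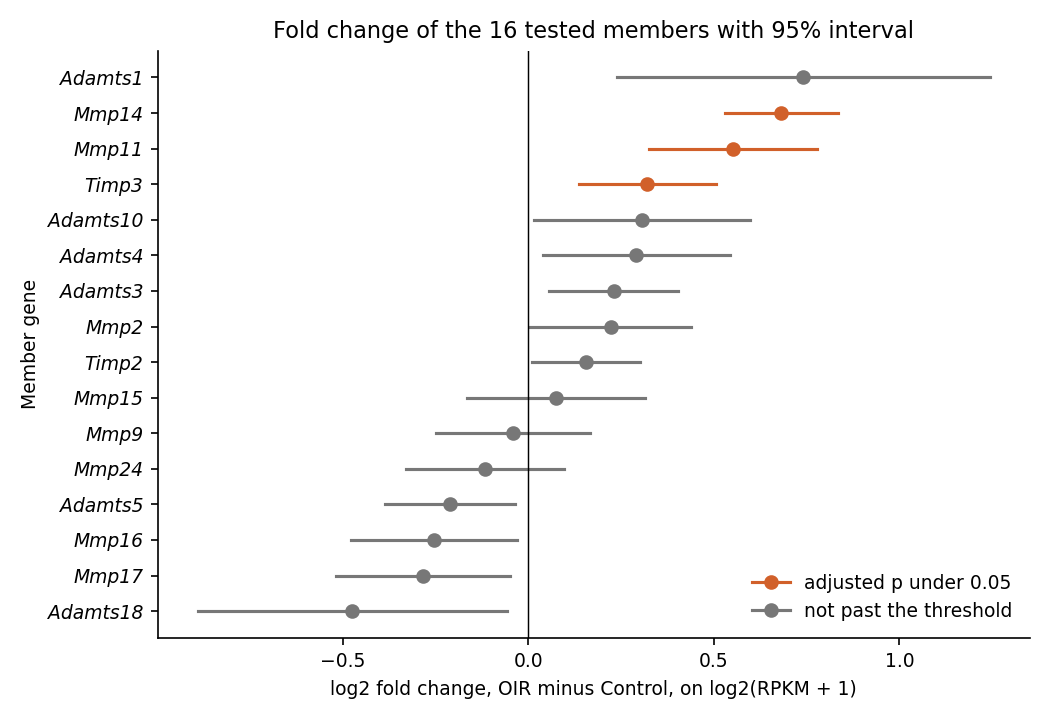
Log2 fold change (OIR minus Control, on log2(RPKM + 1), horizontal axis) of each of the 16 tested members (vertical axis), with its 95% interval from limma; orange marks an adjusted p below 0.05. Mmp14, Mmp11 and Timp3 are past the threshold, and Adamts1 has the largest value, 0.74, and the widest interval.

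The sequences before the start of 6 members are printed here, so that their promoters can be set beside their levels. They are the called members Mmp14, Mmp11 and Timp3, and Timp1, which changed at least 2-fold at 1 RPKM or more. Mmp12 and Mmp13 were added after their values were seen. The sequences are the 250 bases upstream of the RefSeq gene start on GRCm38.p6, 5′ to 3′ on the strand of the gene. Capitals mark a match on either strand to the hypoxia response element core, searched as ACGTG or GCGTG, or to the AP-1 site, searched as TGANTCA. No printed window held matches to both motifs.
Mmp14, chr14:54431348-54431597, + strand: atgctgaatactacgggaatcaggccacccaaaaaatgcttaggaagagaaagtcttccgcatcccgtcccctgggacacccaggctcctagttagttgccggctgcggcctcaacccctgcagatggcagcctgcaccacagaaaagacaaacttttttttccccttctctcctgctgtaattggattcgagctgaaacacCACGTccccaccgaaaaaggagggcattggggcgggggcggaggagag
Mmp11, chr10:75932503-75932752, - strand: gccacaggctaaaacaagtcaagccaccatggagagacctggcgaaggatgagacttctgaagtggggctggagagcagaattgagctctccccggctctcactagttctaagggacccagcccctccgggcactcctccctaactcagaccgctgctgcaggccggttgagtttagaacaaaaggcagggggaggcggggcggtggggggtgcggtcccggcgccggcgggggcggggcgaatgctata
Timp3, chr10:86300162-86300411, + strand: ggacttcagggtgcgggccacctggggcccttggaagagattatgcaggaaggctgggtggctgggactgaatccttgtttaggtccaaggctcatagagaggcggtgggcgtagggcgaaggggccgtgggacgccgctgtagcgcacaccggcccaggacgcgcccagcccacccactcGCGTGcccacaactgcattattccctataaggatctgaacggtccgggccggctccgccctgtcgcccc
Timp1, chrX:20869916-20870165, + strand: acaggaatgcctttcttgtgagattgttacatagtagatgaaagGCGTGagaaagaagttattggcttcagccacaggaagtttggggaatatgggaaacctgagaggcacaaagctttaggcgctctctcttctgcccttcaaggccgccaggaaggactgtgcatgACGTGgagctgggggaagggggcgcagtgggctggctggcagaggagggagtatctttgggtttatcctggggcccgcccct
Mmp13, chr9:7272264-7272513, + strand: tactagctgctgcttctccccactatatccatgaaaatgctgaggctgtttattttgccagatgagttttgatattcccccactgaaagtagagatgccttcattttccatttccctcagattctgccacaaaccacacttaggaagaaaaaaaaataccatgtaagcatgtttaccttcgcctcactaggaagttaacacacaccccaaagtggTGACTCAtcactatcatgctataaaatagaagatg
Mmp12 (start 1), chr9:7344147-7344396, + strand: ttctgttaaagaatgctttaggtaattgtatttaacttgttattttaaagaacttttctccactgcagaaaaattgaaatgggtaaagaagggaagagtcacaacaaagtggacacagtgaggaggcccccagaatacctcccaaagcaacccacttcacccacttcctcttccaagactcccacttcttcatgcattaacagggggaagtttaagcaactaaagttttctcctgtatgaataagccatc
Mmp12 (start 2), chr9:7347124-7347373, + strand: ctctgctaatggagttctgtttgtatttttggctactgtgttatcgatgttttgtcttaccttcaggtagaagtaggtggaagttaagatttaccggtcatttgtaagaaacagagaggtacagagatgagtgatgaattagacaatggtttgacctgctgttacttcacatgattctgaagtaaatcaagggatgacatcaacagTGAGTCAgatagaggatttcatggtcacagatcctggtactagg
Mmp14 and Timp3 held 1 match each to the hypoxia core, Timp1 held 2, and Mmp11 held none. Of the other low members described below, Adamts12 and Mmp25 also held a hypoxia core match and are not printed. An AP-1 match stood 35 bases before the start of Mmp13 and 44 bases before the second listed start of Mmp12. The table of promoters held 32 of the 46 members. The hypoxia core was found in 14 of these 32 and in 38.6% of all 32851 promoters in the table. The AP-1 match was found in 8 of the 32, Mmp10, Mmp12, Mmp13, Mmp1a, Mmp1b, Mmp20, Mmp3 and Mmp7, and in 6.75% of all promoters. All 8 belong to the cluster of 10 Mmp genes on chromosome 9. Members were counted once per gene, with a match before any listed start, but the shares over all promoters count each start. The member counts and these shares are therefore not in the same unit. A match describes the letters only and does not show binding.

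The membrane-type MMPs are anchored to the cell surface. Mmp14 encodes MT1-MMP, which cuts fibrillar collagen and, together with TIMP2, activates the secreted gelatinase MMP2. Its level was 8.98, 8.66 and 9.01 RPKM in Control 1, 2 and 3 and 14.7, 14.1 and 15.7 RPKM in OIR 1, 2 and 3. All OIR libraries lay well above all Control libraries, and the libraries of a group lay close together. Mmp14 rose from 8.88 ± 0.198 to 14.9 ± 0.819 RPKM (SD, n = 3 each), a ratio of 1.67. In limma this was 0.68 on the log2 scale (standard error 0.0691, adjusted p 0.000289), and the call held under each alternative tried. Mmp14 made up 11.8% ± 0.608 of the summed RPKM of all 42 proteases in Control and 16.9% ± 0.416 in OIR, and moved from the second to the first place among them.

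Of the other membrane-type genes, 4 were tested and none passed. Mmp24, which encodes an MMP of the nervous system and was the highest protease in Control, stood at 12.1, 11.5 and 9.49 RPKM in Control libraries and 9.56, 11.1 and 9.59 RPKM in OIR, with overlapping groups. Its limma 95% interval ran from -0.33 to 0.10, and 13.6% of its exon bases overlap BC029722 on the other strand. The limma log2 fold change of Mmp24 was -0.12, against -0.21 without Control 3, and without both lens-rich libraries it was called lower, at -0.28 and an adjusted p of 0.0129. Mmp17, which encodes an MMP held by a lipid anchor, stood at 7.50, 8.39 and 6.79 RPKM in Control libraries and at 5.11, 6.90 and 6.14 RPKM in OIR, an overlap by OIR 2 alone. Its ratio was 0.800, its log2 fold change -0.28 and its adjusted p 0.0855 in limma. Without OIR 2 Mmp17 was called lower in limma, at -0.37 and 0.0193. It was also called without both lens-rich libraries, but not when any other single library was left out. Mmp15 was at 5.07 ± 0.826 RPKM in Control libraries and 5.36 ± 0.573 RPKM in OIR. Mmp16, whose product is another membrane-type MMP, was at 1.88, 1.46 and 1.37 RPKM in Control libraries and 1.002, 1.27 and 1.18 RPKM in OIR, lower in all OIR libraries, but did not pass (limma adjusted p 0.105). Without both lens-rich libraries Mmp16 was called lower, at a limma adjusted p of 0.0449. The 6 membrane-type genes together held 71.8% ± 0.574 of the summed Mmp level in Control and 71.3% ± 1.11 in OIR.

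The gelatinases MMP2 and MMP9 cut denatured collagen and the type IV collagen of basement membranes. Neither gene passed the test. Mmp9 was the third highest protease in Control, at 9.51, 8.53 and 7.66 RPKM, and was at 7.49, 9.13 and 8.23 RPKM in OIR. The groups overlapped throughout, and the limma log2 fold change was -0.04, with an interval from -0.25 to 0.16. Mmp2 was at 2.30, 2.40 and 2.66 RPKM in Control libraries and 2.54, 3.22 and 3.36 RPKM in OIR. Only OIR 1 lay within the Control range, and the adjusted p was 0.139 in limma. Connective tissue markers, among the cells in which Mmp2 is usually high, had a summed level of 8.87 to 23.9 RPKM over 8 genes in Control and 17.6 to 26.8 RPKM in OIR, with 2 of 6 tested genes higher and none of the 8 at 0. The 2 higher genes were Col3a1 and Pdgfra, and Pdgfra is also in the list of astrocyte markers used below. The part of these markers in the level of Mmp2 was not tested.

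Mmp11 encodes stromelysin-3, an MMP that leaves the cell already activated by furin. Its level was 0.905, 1.14 and 0.736 RPKM in Control libraries and 1.61, 1.86 and 1.99 RPKM in OIR, with every OIR library above every Control library. Mmp11 rose from 0.928 ± 0.204 to 1.82 ± 0.194 RPKM, a ratio of 1.96 (limma log2 fold change 0.55, standard error 0.103, adjusted p 0.00672). It passed the filter only through OIR, so this call is a description. With no filter its limma adjusted p was 0.0244. Between 60 and 173 reads per library lay behind these values. In the GENCODE annotation 5.58% of the exon bases of Mmp11 overlap exons of Chchd10 on the other strand.

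**Figure D2:**
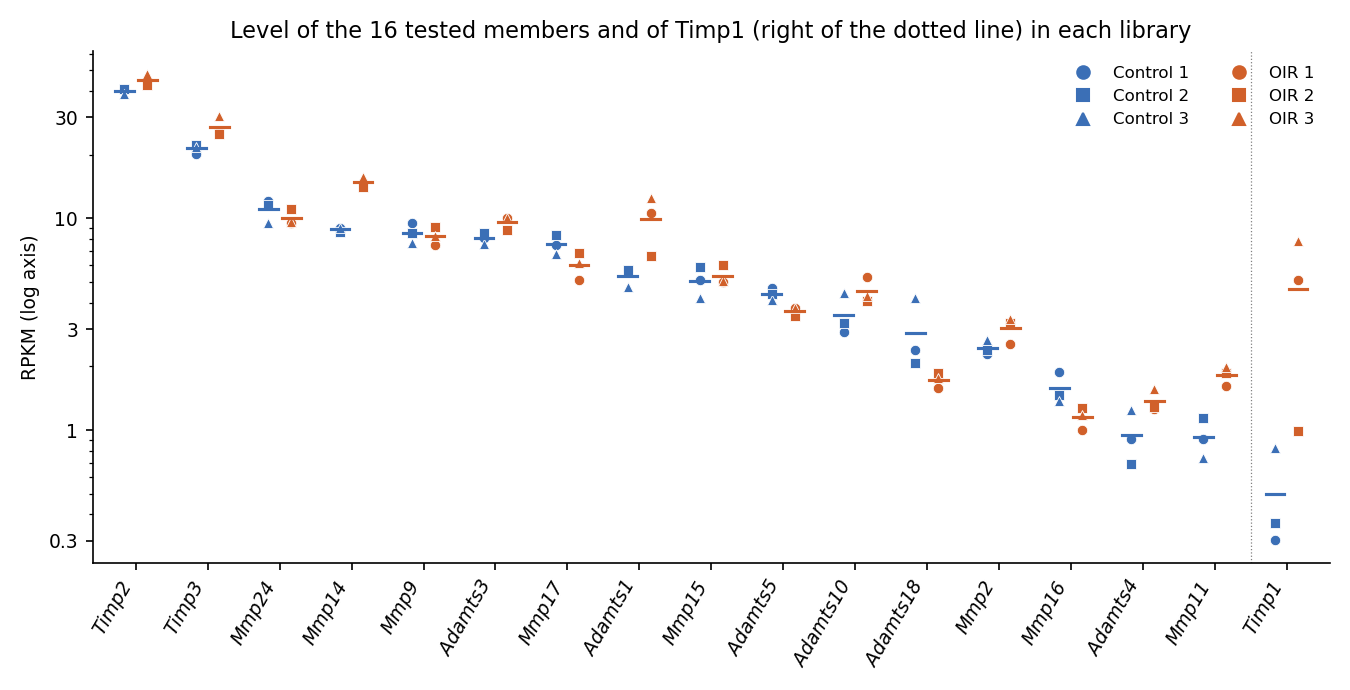
RPKM (log axis) of the 16 tested members, ordered by their Control mean, and of Timp1, right of the dotted line, in each of the 6 libraries; blue marks Control, orange OIR, symbols the replicate number and short lines the group means. The Mmp14 values lie from 8.66 to 9.01 RPKM in Control libraries and from 14.1 to 15.7 RPKM in OIR, while Timp1 in OIR 2 lies near the Control libraries.

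Of the ADAMTS enzymes, 6 were tested and none passed, although all 6 had an unadjusted p below 0.05, 4 of them higher and 2 lower. Adamts1, Adamts4 and Adamts5 encode enzymes that cut the large proteoglycans versican and aggrecan. Adamts1, whose protein also restrains vessel growth, was at 5.68, 5.68 and 4.74 RPKM in Control libraries and at 10.6, 6.68 and 12.4 RPKM in OIR. OIR 2 lay just above the Control range and the other OIR libraries far above it. The ratio was 1.85 and the limma log2 fold change 0.74 (standard error 0.208, adjusted p 0.0547). Adamts1 was called higher without OIR 2, at 0.97 and an adjusted p of 1.8e-05, and with a pseudocount of 0.1 at 0.0498. It was also called with median-of-ratios scaling at 0.0452, upper-quartile scaling at 0.0464 and lens reads left out of the total at 0.0435. It was not called in limma with no filter, at 0.0604, or with limma-voom on recovered reads, at 0.0942. When any other single library was left out it was not called either, at limma adjusted p of 0.0791 to 0.195.

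Adamts5 went the other way. It was at 4.67, 4.41 and 4.13 RPKM in Control libraries and 3.77, 3.44 and 3.79 RPKM in OIR, with all OIR libraries below all Control libraries. The limma log2 fold change was -0.21 and the adjusted p 0.0885. It was called lower with median-of-ratios scaling at 0.0357 and with upper-quartile scaling at 0.0337. It was also called with lens reads left out of the total at 0.0374 and with limma-voom on recovered reads at 0.0406. When any single library was left out it was not called, at limma adjusted p of 0.0612 to 0.258. Adamts4 was at 0.903, 0.692 and 1.24 RPKM in Control libraries and 1.26, 1.29 and 1.56 RPKM in OIR, a narrow separation (limma adjusted p 0.0992). Its highest Control value came from Control 3, and without that library it was called higher, at 0.0398. When any other single library was left out, limma did not call Adamts4. Adamts9, which encodes a versican-cutting enzyme, was too low to be tested and was at 0.332 ± 0.0613 RPKM in Control libraries and 0.531 ± 0.185 RPKM in OIR. In the annotation its exons overlap 2 genes on the other strand.

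Adamts3 was the highest ADAMTS gene in Control and encodes a procollagen-processing enzyme that is known for activating the lymphatic growth factor VEGF-C. It was at 8.09, 8.55 and 7.60 RPKM in Control libraries and 10.03, 8.84 and 10.08 RPKM in OIR. The groups did not overlap, but OIR 2 lay close to Control 2, and the adjusted p was 0.0645 in limma. It was called higher without OIR 2, at 0.0260, and with limma-voom on recovered reads, at 0.0377. When any other single library was left out, limma did not call Adamts3. Adamts10, which encodes a fibrillin-binding enzyme, was at 2.90, 3.21 and 4.42 RPKM in Control libraries and 5.29, 4.06 and 4.28 RPKM in OIR. Control 3 alone made the groups overlap, and without it Adamts10 was called higher. Its limma log2 fold change was then 0.45 in place of 0.31, and its adjusted p 0.0336 in place of 0.129. When any other single library was left out, limma did not call Adamts10. Adamts18 was at 2.40, 2.07 and 4.19 RPKM in Control libraries and 1.57, 1.85 and 1.75 RPKM in OIR. Here too Control 3 was the highest Control library, and without it the log2 fold change was -0.25 in place of -0.47, with adjusted p of 0.101 and 0.106. Adamts18 was called lower in limma without Control 2, at 0.0467, but not when any other single library was left out. The summed level of 13 lens markers was 48830 RPKM in Control 3, 4168 RPKM in OIR 2 and from 112 to 447 RPKM in the other libraries, and its part in these values was not tested.

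The 4 TIMPs were higher in every OIR library than in every Control library, though 1 of them passed the test. Over all genes above 0, 20.5% had all OIR libraries above all Control libraries. Timp2 and Timp3 supplied nearly all inhibitor RNA. Timp3 was at 20.1, 22.3 and 21.8 RPKM in Control libraries and 25.5, 25.1 and 30.6 RPKM in OIR. It rose from 21.4 ± 1.12 to 27.1 ± 3.02 RPKM, a ratio of 1.26 (limma log2 fold change 0.32, standard error 0.0834, adjusted p 0.0246). The call ended without Control 1, OIR 1 or OIR 3, at adjusted p of 0.0993, 0.0565 and 0.101, and with no filter, at 0.0607. Timp3 lies inside Syn3, which is read from the other strand, and shares 21.3% of its exon bases with it. Markers of the pigment epithelium, a known source of TIMP3, had no higher gene: their sum over 10 genes was 296.7 to 339.1 RPKM in Control libraries and 228.1 to 259.0 RPKM in OIR, 2 of 7 tested genes were lower and none was at 0. The 2 lower genes, Rlbp1 and Rgr, are also active in Müller glia, and Rlbp1 makes up most of the sum. Without Rlbp1 the sums were 52.3 to 69.8 RPKM and 45.3 to 52.6 RPKM, and the groups overlapped. Of 9 Müller glia markers, Rlbp1 among them, 2 were higher and 6 lower, with sums of 2001 to 2141 and 1722 to 1873 RPKM and none at 0. The part of these markers in the level of Timp3 was not tested.

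Timp2, the highest member, was at 40.8, 40.8 and 38.9 RPKM in Control libraries and 44.0, 42.7 and 48.1 RPKM in OIR. The groups did not overlap, the ratio was 1.12, and the adjusted p was 0.122 in limma. Timp4 was too low to be tested, at 0.176 ± 0.0552 RPKM in Control libraries and 0.289 ± 0.0307 RPKM in OIR, with 14 to 35 reads per library.

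Timp1, the inducible inhibitor of the family, had the largest ratio among the TIMPs and the largest spread. It was at 0.303, 0.365 and 0.824 RPKM in Control libraries and at 5.10, 0.986 and 7.81 RPKM in OIR. OIR 1 and OIR 3 stood far above Control, while OIR 2 stood just above Control 3. The ratio of the means was 9.31, and Timp1 missed the filter because only those 2 libraries reached 1 RPKM. With no filter the limma adjusted p was 0.108. In limma-voom on recovered reads of all genes with at least 10 reads it was 0.314, where the log2 fold change was 2.90 (standard error 1.61). Without OIR 2 that fit gave 3.77 and an adjusted p of 3.52e-05, and without both lens-rich libraries 4.19 and 4.13e-05. When any other single library was left out, that fit did not call Timp1. The sum of 5 astrocyte markers, Gfap among them, was 22.7 to 27.8 RPKM in Control libraries and 81.8, 49.1 and 100.4 RPKM in OIR 1, 2 and 3, with 2 of 4 tested genes higher and none at 0. Gfap made up most of that difference: without it the sums were 19.2, 17.1 and 17.03 RPKM in Control 1, 2 and 3 and 20.5, 21.0 and 26.3 RPKM in OIR 1, 2 and 3, and OIR 2 was not the lowest OIR library. The 2 higher genes were Gfap and Pdgfra, and Pdgfra is also among the connective tissue markers above. The part of these markers in the level of Timp1 was not tested.

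Proteases and inhibitors were then set against each other by their summed RPKM, with no test, since the members were chosen with results known. The 42 proteases summed to 77.2, 77.1 and 72.5 RPKM in Control libraries and 85.1, 85.7 and 92.4 RPKM in OIR. The 4 TIMPs summed to 61.4, 63.7 and 61.7 RPKM in Control libraries and 74.9, 69.2 and 86.7 RPKM in OIR. Both sums were higher in all OIR libraries, by ratios of 1.16 and 1.24. Their quotient was 1.26, 1.21 and 1.18 in Control and 1.14, 1.24 and 1.07 in OIR, with means of 1.21 ± 0.0400 and 1.15 ± 0.0869, so the groups overlapped. The Mmp sum divided by the TIMP sum was 0.764 ± 0.0545 in Control and 0.695 ± 0.101 in OIR, and the Adamts sum divided by it 0.450 ± 0.0211 and 0.452 ± 0.0282.

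Single pairs were also read with no test, and they restate the levels given above. Mmp14 over Timp2 and Mmp9 over Timp1 did not overlap between the groups, while Mmp2 over Timp2 did. Mmp14 divided by Timp2 was 0.220, 0.212 and 0.232 in Control and 0.335, 0.331 and 0.327 in OIR, with no overlap and little spread. Mmp2 divided by Timp2 overlapped between the groups, at 0.0612 ± 0.00643 and 0.0677 ± 0.00900. Mmp9 divided by Timp1 was 31.3, 23.3 and 9.29 in Control and 1.47, 9.26 and 1.05 in OIR, so that OIR 2 nearly met Control 3. Timp1 supplied 0.801% ± 0.465 of the TIMP sum in Control and 5.75% ± 3.90 in OIR, with 1.43% in OIR 2, while Timp2 and Timp3 together supplied 98.9% ± 0.420 in Control and 93.9% ± 3.82 in OIR.

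**Figure D3:**
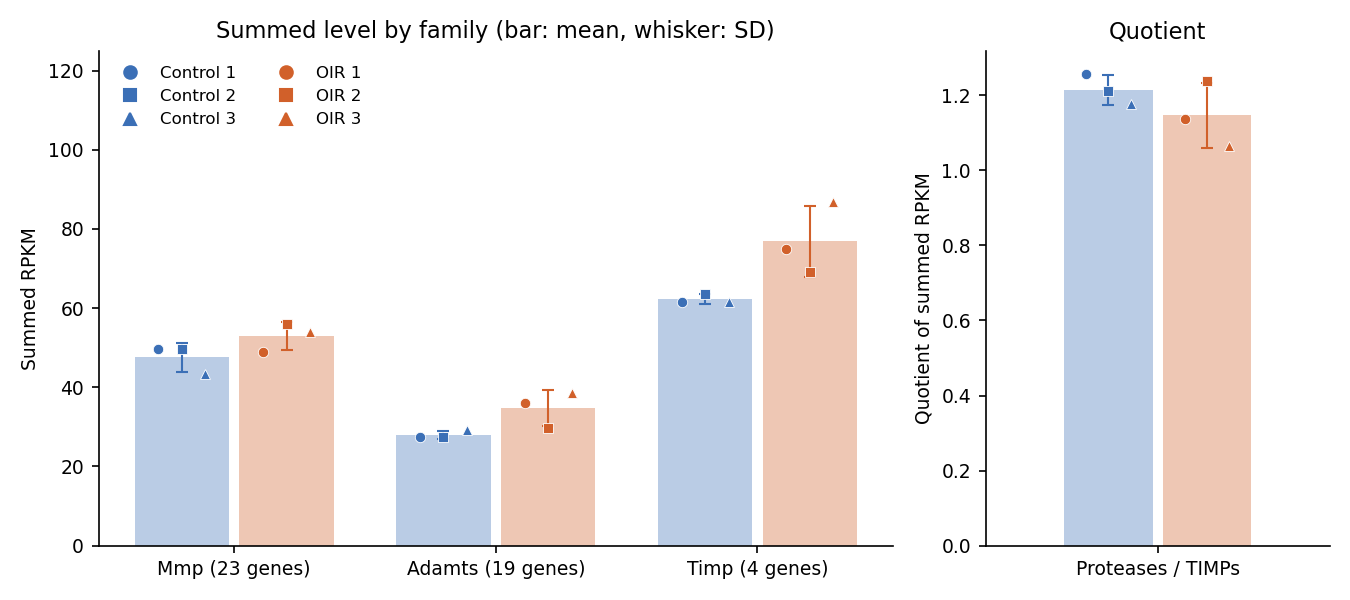
Left, summed RPKM of the Mmp, Adamts and Timp genes; right, quotient of summed proteases and summed TIMPs; bars are group means, whiskers the SD (n = 3) and symbols the single libraries, Control in blue and OIR in orange. The TIMP sum is 61.4 to 63.7 RPKM in Control libraries and 69.2 to 86.7 RPKM in OIR, and the quotients of the groups overlap.

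Most other members were rare. Of the 30 members not tested, 26 were above 0 in some library, and in 12 of these all OIR libraries lay above all Control libraries, and in 1, Adamts15, below. Over the 42 members above 0 these counts were 19 and 4, or 45.2% and 9.52%, against 20.5% and 12.2% of all genes above 0. All of these 23 members are among the 37 with at least 10 reads, where the shares over all genes were 22.1% and 13.2%. With no filter, limma called 7 of 42 members higher and 0 lower, against 6.73% higher and 9.68% in either direction over all genes. To look at them by their reads, limma-voom was run on the recovered reads of the 16441 genes with at least 10 reads in all, a fit chosen after the values were seen. It held 37 members and called 9 higher and 1 lower, 27.0% of them, where it called 16.6% of all its genes, 10.3% higher and 6.36% lower. Without OIR 2 it called 13 members higher and 1 lower, against 13.6% higher and 8.76% lower of all its genes. Without Control 1 it called 4 members higher and 0 lower, against 4.67% higher and 2.4% lower of all its genes. With no library left out, the higher ones were Mmp14, Mmp11, Timp3, Adamts3 and 5 members too low for the test above. These 5 were Adamts12, Adamts7, Mmp25, Mmp12 and Mmp13, of which Mmp13 reached 10 reads only through OIR. The lower one was Adamts5.

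Adamts12 and Adamts7 encode a pair of related enzymes that cut cartilage oligomeric matrix protein. Adamts12 had 60, 43 and 30 reads in Control and 121, 133 and 123 reads in OIR, with no overlap. In limma-voom its log2 fold change was 1.52 (standard error 0.282, adjusted p 0.00391), and it was called whichever single library was left out. Adamts7 had 25, 39 and 30 reads in Control and 77, 74 and 94 reads in OIR, at 1.36 and an adjusted p of 0.0113 in limma-voom. Its call ended without Control 1, at 0.0610. In the annotation 1.94% of its exon bases overlap Tbc1d2b on the other strand.

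Mmp12 encodes macrophage elastase. It shares 2.17% of its exon bases with Mmp1b on the other strand, which was listed at 0. Mmp12 had 4, 1 and 5 reads in Control and 42, 29 and 51 reads in OIR, with all OIR libraries far above Control. The rate of reads was 12.01 times higher in OIR, with an exact 95% interval of 6.31 to 25.7 that covers counting error only. In limma-voom its log2 fold change was 3.58 (standard error 0.695, adjusted p 0.00479), and it was called whichever single library was left out. Of 12 markers of microglia and macrophages, 11 were tested and all 11 were higher in OIR, and none was at 0. Their sum was 34.3 to 39.5 RPKM in Control libraries and 142.1, 104.1 and 144.1 RPKM in OIR 1, 2 and 3. Their part in the level of Mmp12 was not tested, and more cells of a type and more RNA per cell cannot be told apart in whole retina.

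Mmp13, a collagenase gene, had 2, 0 and 2 reads in Control and 9, 10 and 10 reads in OIR. It reached 10 reads only through OIR, the group in which it is higher, so its call is a description. The ratio of read rates was 7.14, with an interval of 2.51 to 28.0, and the limma-voom adjusted p of 0.0466 rose above 0.05 when any library was left out, to between 0.0575 and 0.177. Mmp25 encodes a membrane-type MMP best known from leukocytes. It had 13, 5 and 3 reads in Control and 27, 46 and 45 reads in OIR, a limma-voom log2 fold change of 2.57 and an adjusted p of 0.0123, which was 0.0514 without Control 2. The sum of 7 neutrophil markers was at most 0.0292 RPKM in a Control library and 0.891, 0.191 and 1.86 RPKM in OIR 1, 2 and 3. Of these genes S100a8, S100a9 and Ngp were at 0 in all Control libraries and above 0 in all OIR libraries. Elane, at 0.0292 RPKM in Control 1, and Mpo, at 0.0106 RPKM in Control 2, were at 0 in all OIR libraries. Camp was above 0 in OIR 2 alone, and Ly6g was at 0 in all libraries. The genes are named here after their values were seen. None passed the RPKM filter, and of the 2 genes in the limma-voom fit neither was called. The part of these markers in the level of Mmp25 was not tested.

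**Figure D4:**
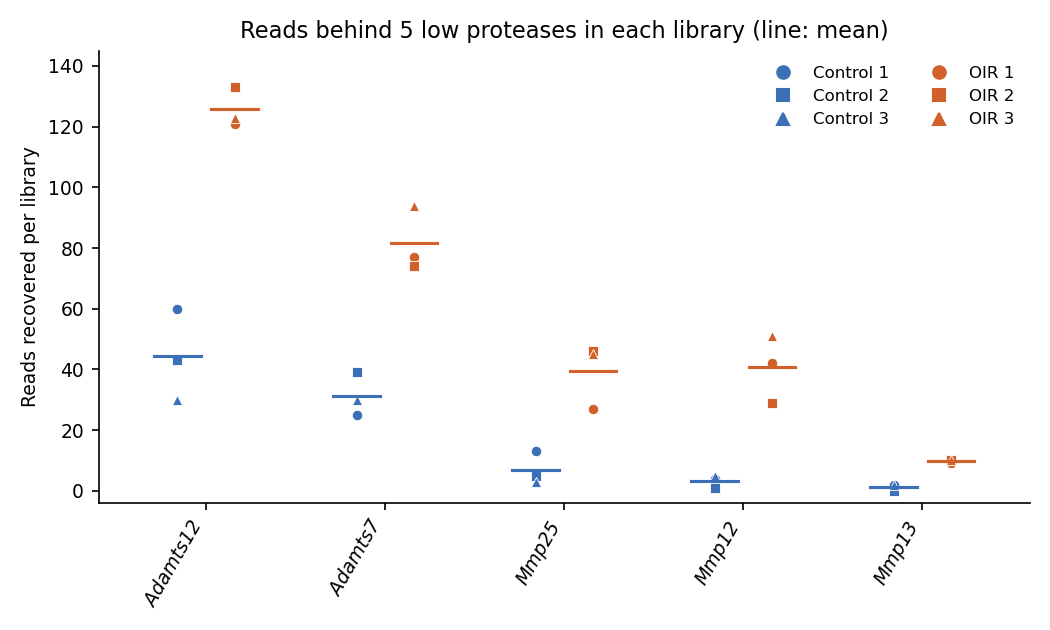
Reads recovered per library (vertical axis) for 5 proteases that were too low for the limma test on RPKM; blue marks Control, orange OIR, symbols the replicate number and short lines the group means. In each gene the 3 OIR libraries lie above the 3 Control libraries, with 29 to 51 reads against 1 to 5 for Mmp12.

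Mmp12 and Mmp13 are neighbours in the cluster of 10 Mmp genes on chromosome 9, none of which was tested. The highest value in the cluster was 0.389 RPKM, and 4 of its genes were at 0 in all libraries. Mmp3, the stromelysin-1 gene, had 0, 26 and 6 reads in Control and 12, 6 and 11 reads in OIR, with overlapping groups. Mmp8, the neutrophil collagenase gene, had 1 read each in OIR 1 and OIR 3 and none elsewhere, and Mmp10 was above 0 in OIR 3 alone. A count of 0 allows up to 3 reads in a library, so low levels of these genes would not have been seen.

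Genes that act with these enzymes were read from lists by function. Of 28 regulators and activators of MMPs, 20 were tested, 10 were higher and 4 lower in OIR. Over all tested genes 11.6% were higher and 7.22% lower, and the counts of each list are to be read beside these shares. The lists were chosen with earlier results of these data known, so the counts were not tested against the shares. Serpine2, which encodes the serine protease inhibitor protease nexin-1, rose from 8.52 ± 0.622 to 13.5 ± 0.123 RPKM (limma adjusted p 0.000617). Plat, the gene of tissue plasminogen activator, rose from 6.13 ± 0.776 to 13.3 ± 2.11 RPKM (0.000877). Bsg, which encodes the MMP inducer basigin, rose from 469 ± 10.2 to 679 ± 95.7 RPKM (0.00635). The 4 lower genes, Pcsk5, Spock1, Spock2 and Spock3, named after their values were seen, encode a proprotein convertase and a family of matrix proteoglycans.

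Of 20 substrates, 16 were tested and 8 were higher, and none was lower, where 11.6% of all tested genes were higher and 7.22% lower. Vwf, which encodes the substrate of ADAMTS13, had a ratio of 3.57 (limma adjusted p 1.61e-05), while Adamts13 itself had at most 6 reads in any library. Vwf is also among the endothelial markers read below. Col1a1, Col1a2, Col3a1 and Dcn are also among the connective tissue markers above, so these lists are not separate. Col2a1 rose by a ratio of 2.58, Lama4 by 3.42 and Tgfbi by 5.55. Tgfbi was below 1 RPKM in all Control libraries and passed the filter only through OIR, as did 1 of the 10 higher regulators. Col4a1 encodes a basement membrane collagen and is named because of its values: 49.5 RPKM in the lens-rich Control 3 against 8.94 in Control 1 and 8.82 in Control 2. It did not pass. The versican and aggrecan genes Vcan and Acan were too low to be tested, at 0.511 ± 0.295 and 0.0210 ± 0.0150 RPKM in Control. Of 11 ADAM proteases, the membrane-bound relatives of the ADAMTS enzymes, 7 were tested and 2 were higher, Adam15 with a ratio of 1.41 (limma adjusted p 0.00318) and Adam17 with 1.27 (0.0254). Of 5 Adamtsl genes, which encode ADAMTS-like proteins with no protease domain, 4 were tested and Adamtsl2 was higher, with a ratio of 1.37 (limma adjusted p 0.0352). Markers of vessel cells were also read: 11 of 12 endothelial markers were higher, with sums of 66.6 to 70.6 RPKM in Control libraries and 118.5 to 129.6 RPKM in OIR. Of 10 pericyte and smooth muscle markers 9 were tested and 6 were higher, with sums of 30.1 to 54.6 and 73.2 to 94.4 RPKM. Notch3 and Des among the 6, and Erg among the 11, were below 1 RPKM in all Control libraries and passed the filter only through OIR. None of these markers was at 0 in all libraries, and their part in the levels of the members was not tested.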

How the data were processed

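The deposited files hold 1 RPKM value per gene symbol and library, computed by the authors. The submitters' processing notes list the aligners Bowtie2 2.0.6 and TopHat2 2.0.12. For build, annotation, counting program and strand, nothing is given in the sources used here, and the labels' library protocol describes another species. Groups and replicate numbers came from the titles. Low values are whole multiples of 1 read. These steps, with GENCODE M21 transcript lengths through 144 genes, gave depth and read numbers: 99.99% of genes above 0 came out whole, within 0.001 of a read plus 1e-07 per read. For genes seen in few libraries these are the smallest whole numbers that fit.

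The values were tested with limma 3.58.1 in R 4.3.3 (trend and robust options, pseudocount 1, group as the only term, two-sided). On simulated data for OIR against Control with 12035 genes, it recovered 18.8%, 60.6% and 89.2% of genes changed 1.25-fold, 1.5-fold and 2-fold. The simulation left 11840 of its genes unchanged and made no library rich in lens reads. In the real data 18.8% of genes were called, so these rates need not hold there. Values in every library were planned for called members, 14 preset members and members changed at least 2-fold at 1 RPKM or more. From each functional list up to 4 tested genes with the smallest adjusted p were taken, and some results are not reported here. Members and lists were chosen with earlier results of these data known. Adamts3, Adamts7, Adamts12, Adamts18, Mmp13, Mmp15 to Mmp17, Mmp24 and Mmp25 were added after their values were seen. Promoters came from RefSeq, and exon overlaps from GENCODE M21.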

Additional observations from a re-analysis of the deposited data

How the results depend on the processing

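The call of Mmp14 held in each alternative, and that of Mmp11 in each but limma-voom on genes with at least 10 reads without Control 1. Leaving lens reads out, and limma-voom on genes with at least 10 reads, were chosen after seeing the data. The number of members called higher was 3, and 2 to 5 when single libraries were left out. It was 7 with no filter, 7 without both lens-rich libraries and 9 with limma-voom on genes with at least 10 reads. The number called lower was 0, and 0 to 1 when single libraries were left out. It was 1 with median-of-ratios or upper-quartile scaling, with lens reads left out of the total, and with limma-voom by either gene set, and 3 without both lens-rich libraries. Over all tested genes, the higher calls were 1407, and 513 to 1754 when single libraries were left out. The lower calls were 875, and 212 to 1293 when single libraries were left out, 1356 with upper-quartile scaling, 529 with no filter and 1943 without both lens-rich libraries. Together they were 2282, and 725 to 3047 when single libraries were left out, and 4037 without both lens-rich libraries. Higher genes made up 61.7% of all calls, 49.4% with median-of-ratios scaling and 47.6% with upper-quartile scaling. With lens reads left out of the total they made up 50.6%. Mmp15 ranged from -0.031 to 0.17 when single libraries were left out, with the sign change without Control 3, and changed sign without both lens-rich libraries, to -0.10. Mmp9 ranged from -0.11 to 0.028, with sign changes without Control 1 (0.028) and without OIR 1 (0.021). The causes were not tested. The deviations of libraries with the same replicate number from their group means had correlations of 0.22, -0.44 and -0.41. The largest correlation, 0.49, was between the lens-rich Control 3 and OIR 2. Deviations of 3 libraries from their mean are tied to each other, so these values cannot exclude a pairing. No label states one. With the replicate number as a block, 3 members were higher and 0 lower, and 1222 genes were higher and 809 lower.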
